A study of Mus musculus with 7 samples.

Results

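The 10 genes described here encode the proteins that decide whether a cell leaves G1: the D cyclins Ccnd2 and Ccnd3, the E cyclins Ccne1 and Ccne2, the kinases Cdk4 and Cdk6, the inhibitors Cdkn1b, Cdkn2c and Cdkn2d, and the pocket protein Rb1. They were chosen by symbol from the 55367 rows of the deposited counts, and all 10 were among the 12623 genes with enough counts to be tested. Small extracellular vesicles (sEV) carry RNA and proteins between cells. The experiment asked what sEVs of a leukemic spleen do to T cells. CD8+ T cells came from spleens of mice of the strain Foxp3 YFP/cre and were kept for 48 h with sEVs. For every culture the labels give 100 ug/ml of sEVs. RNA of the cells was sequenced from the 3′ ends. Cells of 4 libraries received control sEVs from the spleens of healthy mice (HCME-sEV), and cells of 3 libraries received sEVs from the spleens of leukemic TCL1 mice (LME-sEV), whose B cells carry a transgene that gives chronic lymphocytic leukemia. Group membership follows the sample titles; one figure legend of the study swaps the sizes of the groups, and if the titles were swapped every direction given here would turn. The labels give every library the description healthy, without saying of what, and no age. The methods describe culture of CD8+ T cells on an anti-CD3 coat with anti-CD28 and IL2, and give the sEVs by the amount found in each kind of spleen and not by a fixed concentration. No untreated culture was analysed here, so each value compares both kinds of sEV with each other and not with none.

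In G1, D cyclins made after a mitogenic or T-cell receptor signal bind Cdk4 or Cdk6, and these kinases start to phosphorylate Rb1. Phosphorylated Rb1 releases E2F transcription factors, E2F raises the E cyclins, and E cyclins with Cdk2 complete the phosphorylation and open S phase. INK4 proteins such as p18 (Cdkn2c) and p19 (Cdkn2d) block Cdk4 and Cdk6, whereas p27 (Cdkn1b) blocks the cyclin E kinase and is lost when naive T cells are activated; resting T cells keep p27 high, and Ccnd2, Ccnd3 and Cdk6 are the forms that lymphocytes use most.

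With LME-sEVs, 4 of the 10 genes fell and 2 rose. Ccnd2, Ccnd3, Ccne2 and Cdk6, which drive the cell out of G1, were lower at between 0.708 and 0.810 times the HCME-sEV level, and Cdkn1b and Rb1, which hold it in G1, were higher at 1.33 and 1.27 times. Ccne1, Cdk4, Cdkn2c and Cdkn2d did not pass the test. Genes were called by the quasi-likelihood test of edgeR, adjusted across the 12623 genes by the Benjamini-Hochberg method, at a false discovery rate (FDR) under 0.05. Of all tested genes 8.96% passed it, 5.21% as lower and 3.75% as higher with LME-sEVs. The libraries of both groups did not overlap for 7 of the 10 genes, against 20.3% of all tested genes. The 10 genes and the wider lists below were chosen with earlier results of these data known. Their shares beside those of all tested genes are therefore a description and not a test. The log2 fold changes lay between -0.50 and 0.41, inside the limit of 1 beyond which a gene counted as differentially expressed, a limit passed by 1.28% of tested genes. The median log2 fold change was -0.12 for the 10 genes and 0.01 for all tested genes. When LME-sEV library 2 was left out 3 of the 10 genes passed (Ccnd2, Ccne2 and Cdk6), and without LME-sEV library 3 there were 2 (Ccnd2 and Cdk6), while the genes passing among all those tested went from 1131 to 391 and 458; without HCME-sEV library 2 they were 723.

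**Figure D1:**
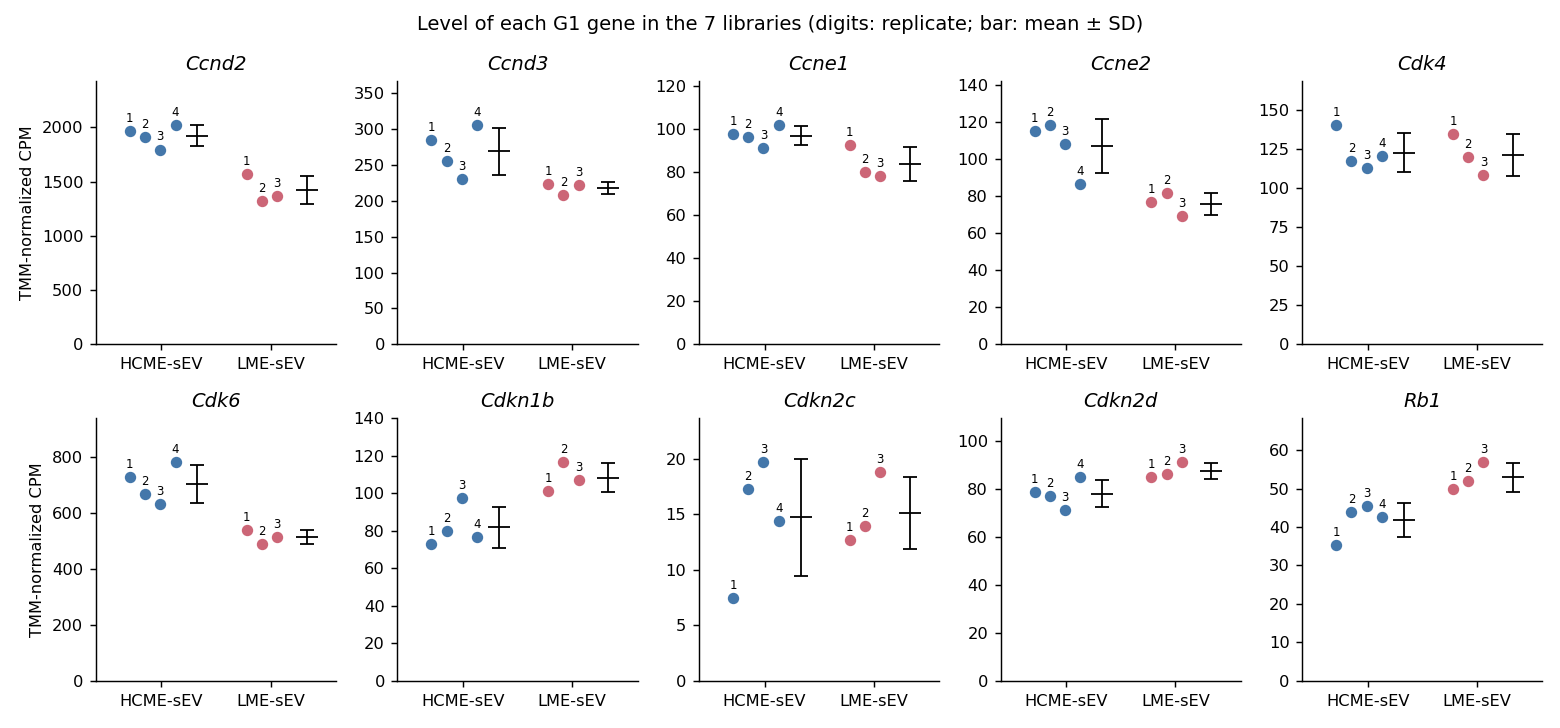
Level of each of the 10 G1 genes as TMM-normalized CPM (y axis, from 0, its scale set for each gene) in the 4 HCME-sEV libraries (blue) and the 3 LME-sEV libraries (red), with the mean ± SD of each group as a black bar. Ccnd2, Ccnd3, Ccne2 and Cdk6 are lower in every LME-sEV library than in any HCME-sEV library, and Cdkn1b, Cdkn2d and Rb1 are higher.

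Libraries held between 3689831 and 5030522 counts, each count standing for a captured molecule with its own molecular identifier, and levels are CPM, the TMM-normalized share of a library's counts (factors 0.965 to 1.03). The floor was set at 3 counts, or 0.582 to 0.807 CPM depending on the library, for counting error alone. Because reads come from 3′ ends, the length of a gene does not enter a level. Counts of libraries of the same group differed by more than counting error in all 9 pairs (chi-square over its degrees of freedom 2.12 to 6.02). Neither the labels nor the methods say whether libraries came from separate animals, so FDRs measure the spread between these libraries, which may be technical. The labelled cell type was checked against its markers: all 6 T-cell markers passed the filter on low counts, Cd8a and Cd8b1 summed to 619 to 694 CPM with HCME-sEVs and 726 to 793 CPM with LME-sEVs, and Cd4 stayed at or under 0.582 CPM.

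Levels of the 10 genes spanned 2 orders of magnitude in the same order at the top of both groups. With HCME-sEVs the means ran from Ccnd2 at 1924 CPM over Cdk6 at 703, Ccnd3 at 269, Cdk4 at 123, Ccne2 at 107, Ccne1 at 96.7, Cdkn1b at 81.8, Cdkn2d at 78.2 and Rb1 at 41.8 to Cdkn2c at 14.7 CPM. From Cdk4 down to Cdkn2d each gene overlapped its neighbour in the range of the libraries, whereas Ccnd2, Cdk6, Ccnd3, Rb1 and Cdkn2c were apart from theirs. With LME-sEVs Cdkn1b stood at 108 CPM, above Ccne1 at 83.5 and Ccne2 at 75.9 CPM, which it had lain below with HCME-sEVs.

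D cyclins are the first of these proteins to be made after a signal. Ccnd2, on chr6:127125162-127152193 (GRCm38, minus strand), was the most abundant of the 10. Its level was 1968, 1908, 1796 and 2023 CPM in HCME-sEV libraries 1 to 4, and 1569, 1324 and 1368 CPM in LME-sEV libraries 1 to 3. Every LME-sEV library was below every HCME-sEV library. The means were 1924 ± 97.3 CPM (SD, n = 4) and 1420 ± 131 CPM (SD, n = 3), a log2 fold change of -0.44 with an SE of 0.0786 (0.738-fold, 95% interval 0.659 to 0.827, FDR = 0.00167). Ccnd2 passed the test whichever library was left out. A transcript on the opposite strand that shares exon sequence with it, 9330179D12Rik, held 1 to 8 counts a library. A smaller or less active share of the cells and less of the transcript per cell cannot be told apart in bulk libraries, here and for the genes below.

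Ccnd3, the other D cyclin of T cells, on chr17:47505051-47599691 (plus strand), was 284, 256, 230 and 306 CPM with HCME-sEVs and 224, 209 and 222 CPM with LME-sEVs. The groups did not overlap, but HCME-sEV library 3 lay close to the highest LME-sEV library. Ccnd3 fell by 0.30 on the log2 scale (SE 0.0898, 0.810-fold, FDR = 0.0389), and it passed in 1 of the 7 fits that left out a library, the one without HCME-sEV library 3. Exons of Bysl, a ribosome biogenesis gene, overlap those of Ccnd3 on the opposite strand at the 3′ end; Bysl fell too, from 90.2 to 66.4 CPM (log2 fold change -0.45, SE 0.0974, FDR = 0.00661). Whether counting used the strand is not given in the sources used here, so reads of both genes cannot be told apart. Ccnd3-ps, which is near-identical to a 3′ end of Ccnd3, held 0 counts in every library. How reads that match both were counted is not given either. Ccnd1, the D cyclin of most other tissues, was low, at 2.41 to 4.27 CPM with HCME-sEVs and 3.30 to 5.17 CPM with LME-sEVs (log2 fold change 0.58, 95% interval -0.10 to 1.26, FDR = 0.307). Ccnd2 made up between 85.8% and 88.5% of the counts of the 3 D cyclins in each library. The log2 ratio of Ccnd2 to Ccnd3 was 2.84 ± 0.107 (SD, n = 4) with HCME-sEVs and 2.70 ± 0.0991 (SD, n = 3) with LME-sEVs, and the groups overlapped. The difference of -0.15 did not pass an exact permutation test over the 35 ways to divide the libraries (two-sided p = 0.143; 0.229 adjusted by Benjamini and Hochberg over 4 such ratios).

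Cdk6, on chr5:3341485-3531008 (plus strand), is the D-cyclin kinase of hematopoietic cells. Its level was 729, 667, 631 and 783 CPM with HCME-sEVs and 537, 490 and 514 CPM with LME-sEVs. The highest LME-sEV library was below the lowest HCME-sEV library. The means were 703 ± 67.2 CPM (SD, n = 4) and 514 ± 23.5 CPM (SD, n = 3), a log2 fold change of -0.45 with an SE of 0.0814 (0.731-fold, 95% interval 0.650 to 0.822, FDR = 0.00167). As for Ccnd2, the call held in all 7 fits that left out a library. An RNA on the opposite strand, Gm17590, shares exon sequence with Cdk6 but held 11 to 31 counts a library, against 1997 to 3364 for Cdk6. Gm16505, which is near-identical to a 3′ end of Cdk6, held 0 counts in every library, and how reads that match both were counted is not given.

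Cdk4, on chr10:127063534-127067920 (plus strand), is the sister kinase that binds the same D cyclins. It was 140, 117, 113 and 120 CPM with HCME-sEVs and 135, 120 and 108 CPM with LME-sEVs, so the groups lay on top of each other. Its log2 fold change was -0.02, with a 95% interval from -0.22 to 0.17 (FDR = 0.916), or a fold from 0.857 to 1.13. Tspan31, on the opposite strand, overlaps its exons and was at 27.7 and 29.1 CPM (FDR = 0.816). Cdk6 made up 83.9% to 86.7% of the counts of both kinases with HCME-sEVs and 79.9% to 82.6% with LME-sEVs.

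The ratio of Cdk4 to Cdk6 within a library does not depend on how libraries are scaled. It was 0.193, 0.176, 0.179 and 0.154 with HCME-sEVs and 0.252, 0.245 and 0.211 with LME-sEVs, without overlap. On the log2 scale the difference was 0.43, and the exact permutation test gave a two-sided p of 0.0286, the smallest that 4 against 3 libraries allow. Adjusted over the 4 ratios the exact permutation p was 0.114. With so few libraries no ratio can pass alone after this adjustment, so the test cannot decide whether the kinases differ.

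**Figure D2:**
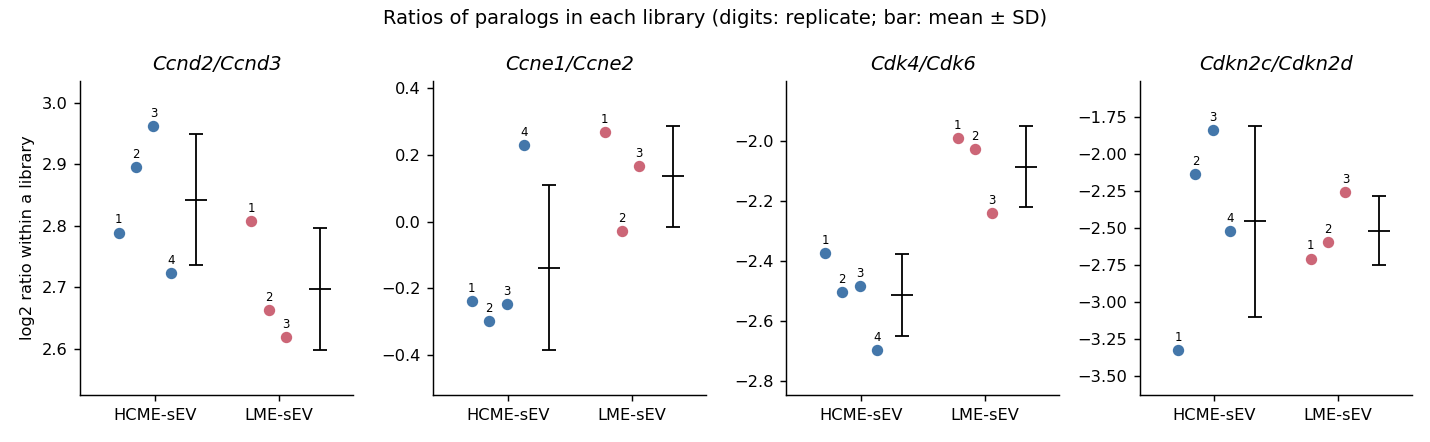
Log2 ratio of each pair of related G1 genes within a library (y axis, each with its own range), for the 4 HCME-sEV libraries (blue) and the 3 LME-sEV libraries (red), with mean ± SD as black bars. Cdk4/Cdk6 is the pair whose groups do not overlap, and HCME-sEV library 4 stands above the other HCME-sEV libraries in Ccne1/Ccne2.

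Sequence upstream of the start site is shown for the kinases because they are paralogs that share their cyclins, and Cdk6 passed the test of single genes while Cdk4 did not. A difference between the kinases was not shown. RefSeq promoter windows (GRCm38.p6) were at hand for 7 of the 10 genes, and no annotated exon starts inside either stretch. That of Cdk4 ends just before the gene, whereas that of Cdk6 lies inside the annotated gene and ends just before an annotated exon. Capitals mark CACGTG, the E-box bound by MYC and related factors, and in Cdk6 also TTTNNCGC. The latter is a pattern looser than the E2F consensus, with any base at N.
Cdk4, chr10:127063285-127063533, plus strand: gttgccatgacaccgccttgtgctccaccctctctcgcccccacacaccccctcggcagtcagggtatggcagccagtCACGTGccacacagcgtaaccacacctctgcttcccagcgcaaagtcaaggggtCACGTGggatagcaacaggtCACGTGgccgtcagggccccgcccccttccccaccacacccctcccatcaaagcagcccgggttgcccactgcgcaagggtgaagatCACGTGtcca
Cdk6, chr5:3343643-3343731, plus strand: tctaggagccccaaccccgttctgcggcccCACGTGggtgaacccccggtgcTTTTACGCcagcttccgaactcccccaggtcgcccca
Cdk4 held 4 E-boxes in the 250 bases before its start site, beginning at positions -172, -118, -98 and -11. Cdk6 held 1 E-box at -220 and 1 match of the loose E2F pattern at -198. Positions count back from the start site at the end of the 250-base window. The stretch printed for Cdk6 leaves out the last 161 bases of that window. Ccnd3 held TGTTTAC, a motif of FOXO factors, at -243 in its window at chr17:47504801-47505050. Its window at chr17:47593217-47593466 held no match. Both strands were searched and no matches overlapped; the windows of Ccne1, Cdkn1b, Cdkn2c and Cdkn2d held none of the 3 motifs. Of 32851 mouse windows of the same length, 6.02% held the E-box, 4.28% the loose E2F pattern and 3.17% the FOXO motif. A match describes the letters of the window and not the binding of a factor.

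E cyclins activate Cdk2 at the end of G1 and are themselves E2F targets. Ccne2, on chr4:11191351-11204779 (plus strand), had the largest decrease of the 10 genes. Its level was 115, 119, 108 and 86.6 CPM with HCME-sEVs and 76.7, 81.6 and 69.4 CPM with LME-sEVs. The groups did not overlap, and HCME-sEV library 4 lay nearer to the LME-sEV libraries than to the other HCME-sEV libraries. From a mean of 107 ± 14.4 CPM (SD, n = 4) against 75.9 ± 6.12 CPM (SD, n = 3), Ccne2 fell by 0.50 on the log2 scale (SE 0.106, 0.708-fold, 95% interval 0.608 to 0.824, FDR = 0.00567). Without LME-sEV library 3 its FDR was 0.0539. Ints8, which overlaps Ccne2 on the opposite strand, did not pass (log2 fold change 0.10, FDR = 0.794).

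Ccne1, on chr7:38097984-38107534 (minus strand), was 97.6, 96.3, 91.2 and 102 CPM with HCME-sEVs and 92.6, 80.0 and 77.9 CPM with LME-sEVs. LME-sEV library 1 lay inside the HCME-sEV range and the other two below it. Its log2 fold change of -0.22 (95% interval -0.40 to -0.03) did not pass after adjustment (FDR = 0.145). Ccne2 took 46.0% to 55.2% of the counts of both E cyclins with HCME-sEVs and 45.3% to 50.5% with LME-sEVs. The log2 ratio of Ccne1 to Ccne2 differed by 0.27, with overlap, and did not pass the exact permutation test (p = 0.171, adjusted 0.229), so a larger decrease of Ccne2 than of Ccne1 was not shown.

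Cdkn1b, on chr6:134920401-134925513 (plus strand), encodes p27, the inhibitor that resting T cells hold at a high level. It was 73.0, 79.8, 97.6 and 76.8 CPM with HCME-sEVs and 101, 117 and 107 CPM with LME-sEVs. All LME-sEV libraries were above all HCME-sEV libraries, the closest being HCME-sEV library 3. The means were 81.8 ± 10.9 CPM (SD, n = 4) and 108 ± 7.93 CPM (SD, n = 3), a log2 fold change of 0.41 with an SE of 0.0994 (1.33-fold, 95% interval 1.15 to 1.53, FDR = 0.0132). The FDR was 0.100 without LME-sEV library 2 and 0.0528 without LME-sEV library 3. No annotated exon of another gene overlaps Cdkn1b.

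The INK4 inhibitors did not pass. Cdkn2d, on chr9:21288410-21291407 (minus strand), was 79.0, 77.3, 71.5 and 85.0 CPM with HCME-sEVs and 85.0, 86.3 and 91.5 CPM with LME-sEVs. HCME-sEV library 4 and LME-sEV library 1 were almost level, at 84.97 and 85.02 CPM. Its log2 fold change was 0.16 (95% interval -0.02 to 0.35, FDR = 0.283).

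Cdkn2c, on chr4:109660876-109667189 (minus strand), was the scarcest of the 10, with 31 to 97 counts a library. It was 7.47, 17.2, 19.7 and 14.4 CPM with HCME-sEVs and 12.6, 13.9 and 18.8 CPM with LME-sEVs, and the LME-sEV libraries lay within the HCME-sEV range. The log2 fold change of 0.07 had a 95% interval from -0.41 to 0.54 (FDR = 0.902), the widest of the 10 genes. The ratio of Cdkn2c to Cdkn2d differed by -0.06 on the log2 scale (exact permutation p = 0.857, before and after adjustment).

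Rb1, on chr14:73183673-73325822 (minus strand), is the pocket protein that G1 kinases inactivate. Its level was 35.4, 43.8, 45.3 and 42.6 CPM with HCME-sEVs and 49.8, 51.9 and 57.0 CPM with LME-sEVs. The groups did not overlap, and HCME-sEV library 1 was the lowest. With means of 41.8 ± 4.40 CPM (SD, n = 4) against 52.9 ± 3.71 CPM (SD, n = 3), the log2 fold change of 0.35 (SE 0.107, 1.27-fold, FDR = 0.0479) lay just inside the threshold. It passed in 1 of the 7 fits that left out a library, that without HCME-sEV library 3, and DESeq2 gave an adjusted p of 0.0920. Lpar6 and Rcbtb2, whose exons overlap Rb1 on the opposite strand, did not pass (log2 fold changes 0.24 and -0.20, FDR = 0.172 and 0.473).

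**Figure D3:**
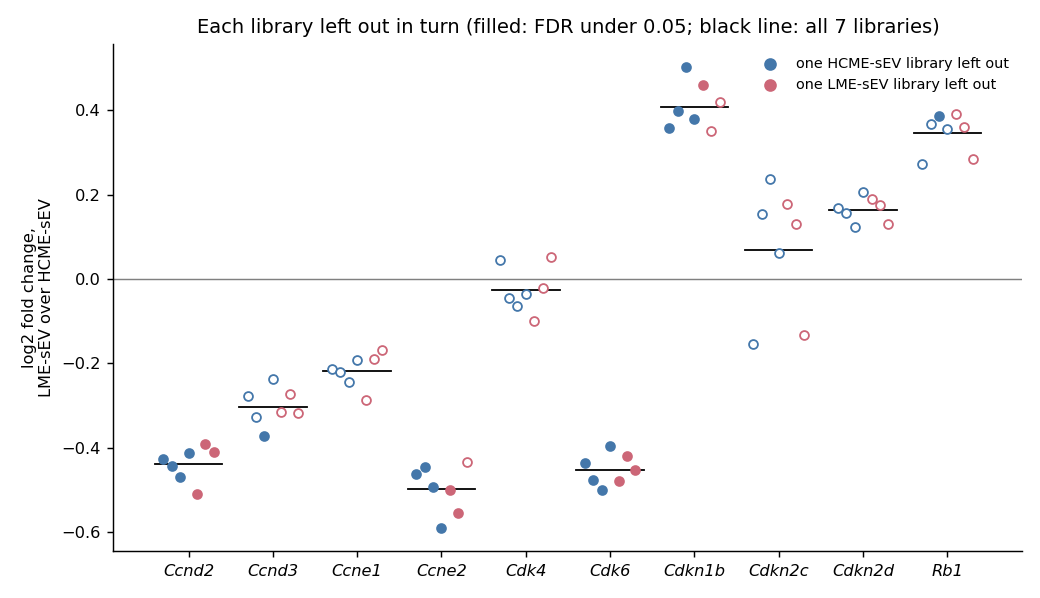
Log2 fold change of LME-sEV over HCME-sEV (y axis) for each of the 10 G1 genes when one library is left out, blue for an HCME-sEV and red for an LME-sEV library, filled where the FDR of edgeR's quasi-likelihood test is under 0.05; the black line is the value with all 7 libraries. Ccnd2 and Cdk6 stay filled in all 7 fits, Ccne2 in 6, Cdkn1b in 5 and Ccnd3 and Rb1 in 1 each, and the values of Cdk4 and Cdkn2c lie on both sides of 0.

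HCME-sEV library 3 was nearest to the LME-sEV group in several of these genes. It was the lowest HCME-sEV library in Ccnd2, Ccnd3, Ccne1, Cdk4, Cdk6 and Cdkn2d and the highest in Cdkn1b, Cdkn2c and Rb1; for Cdkn2d this is the side away from the LME-sEV libraries. Without it the same 6 genes passed, with log2 fold changes of -0.47 for Ccnd2, -0.37 for Ccnd3, -0.49 for Ccne2, -0.50 for Cdk6, 0.50 for Cdkn1b and 0.39 for Rb1. Its platelet marker Pf4 was at 108 CPM, as in the LME-sEV libraries (92.7 to 118 CPM), while the other HCME-sEV libraries had 30.4 to 59.6 CPM.

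Some markers of cells other than CD8+ T cells were higher in LME-sEV libraries as well. Of 31 such markers, Cd4 included, 16 were tested and 6 rose, where 3.75% of all tested genes rose. The summed level of the 31 was 315 to 479 CPM with HCME-sEVs and 523 to 578 CPM with LME-sEVs. Most of that sum was Ighm, an immunoglobulin heavy chain that B cells make, at 241 ± 17.8 CPM (SD, n = 4) against 314 ± 13.4 CPM (SD, n = 3, FDR = 0.00430), whereas Cd79a was at 0 in every LME-sEV library. Platelet markers summed to 41.4 to 141 CPM with HCME-sEVs and 125 to 157 CPM with LME-sEVs, with Pf4 and Ppbp called, and basophil and mast cell markers to 5.30 to 33.5 and 23.7 to 35.3 CPM, with Mcpt8 and Prss34 called. Erythroid markers summed to 33.1 to 42.4 and 34.1 to 49.7 CPM, with Hba-a1 called. Myeloid markers summed to 5.32 to 6.75 CPM with HCME-sEVs and 8.34 to 9.44 CPM with LME-sEVs, without overlap. Only Fcer1g of them was tested, and it did not pass (4.30 and 5.73 CPM, FDR = 0.379). Itgam, too scarce to be tested, had at most 1 count in an HCME-sEV library and 6 to 8 counts in the LME-sEV libraries. Csf1r was level (0.664 and 0.663 CPM) and Cd14 was lower with LME-sEVs (0.190 and 0.0897 CPM). Lyz2 (0.556 and 0.907 CPM) and Adgre1 (0.118 and 0.154 CPM) were higher, and none of these was tested. NK cell markers summed to 0.466 to 1.93 and 0.225 to 0.538 CPM. Of the 6 T-cell markers, Cd3e and Cd3g passed as higher with LME-sEVs (log2 fold changes 0.36 and 0.49), and Cd3g overlapped between the groups. Cd3d, Cd2, Thy1 and Lck did not pass (log2 fold changes 0.21, 0.10, -0.07 and -0.03). Whether these cells or their RNA had a part in the values of the G1 genes was not tested.

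The G1 genes work with a wider set of partners, of which 31 of 33 listed were tested, all but Cdkn1c and Cdkn2b, which had at most 3 counts a library. Of the 31, 2 rose, 1 fell and 28 did not pass, near the share of 8.96% that passed among all tested genes. Their median log2 fold change was -0.08. Rbl2, the pocket protein p130 that represses E2F genes in resting cells, was at 48.7 ± 2.39 CPM (SD, n = 4) against 63.7 ± 6.79 CPM (SD, n = 3), an increase with a log2 fold change of 0.39 (FDR = 0.0165). Tfdp2, a partner of E2F proteins on DNA, rose from 50.8 to 62.8 CPM (log2 fold change 0.31, FDR = 0.0489); it lost its call in 4 of the 9 alternatives that kept every library (DESeq2, limma-voom, no filter on low counts and the replicate block) and in 6 of the 7 fits that left out a library. Cdc25a, the phosphatase that activates Cdk2, fell from 150 to 118 CPM (log2 fold change -0.36, FDR = 0.0110). Both Rbl2 and Rb1 rose, and Rbl1, the pocket protein p107 of cycling cells, was at 52.8 and 56.8 CPM (log2 fold change 0.11, FDR = 0.625). Exons of Aktip overlap Rbl2 on the opposite strand, so its counts are less certain.

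Cdkn1a, which encodes p21, a relative of p27, was at 229 and 191 CPM (log2 fold change -0.26, FDR = 0.0615). Its log2 fold change was below 0, unlike that of Cdkn1b. Cdkn1a passed with the replicate block and without HCME-sEV library 3. Cdk2, the partner of the E cyclins, was at 39.2 and 38.5 CPM (log2 fold change -0.02, 95% interval -0.29 to 0.24, FDR = 0.944). Cdkn2a was at 4.50 and 4.67 CPM (log2 fold change 0.09, FDR = 0.911) and E2f1 at 30.0 and 26.0 CPM (log2 fold change -0.21, FDR = 0.391). Rbl2, Tfdp2 and Cdc25a lost their calls without LME-sEV library 2, and of the 31 genes Cdc25a alone passed without LME-sEV library 3.

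**Figure D4:**
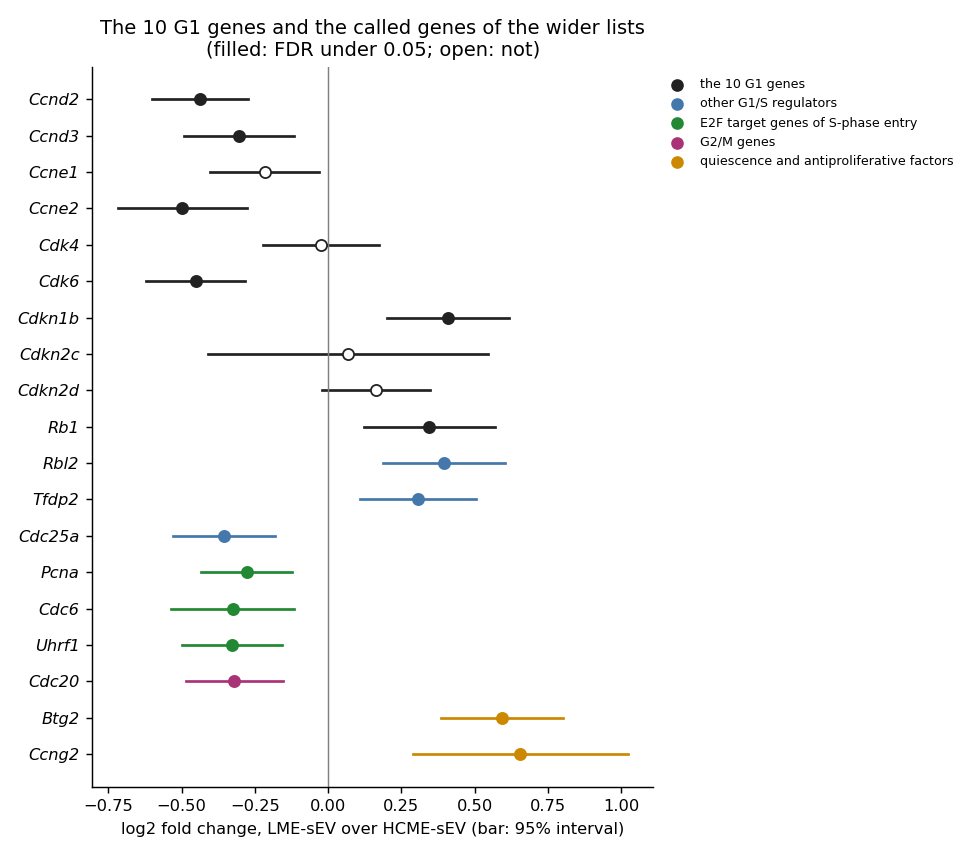
Log2 fold change of LME-sEV over HCME-sEV (x axis) with its 95% interval for the 10 G1 genes (black) and for each gene of 4 wider lists that passed edgeR's quasi-likelihood test (colored by list), filled where the FDR is under 0.05. Ccnd2, Ccnd3, Ccne2, Cdk6, Cdc25a, Pcna, Cdc6, Uhrf1 and Cdc20 lie below 0, and Cdkn1b, Rb1, Rbl2, Tfdp2, Btg2 and Ccng2 above it.

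Downstream of Rb1, 18 E2F target genes that copy DNA or license it were all tested. Of them 3 fell and 15 did not pass, where 5.21% of all tested genes fell. A log2 fold change below 0 was found in 16 of 18, against 6127 of all 12623 tested genes, and the median was -0.19. Those that fell were Pcna, the sliding clamp of DNA polymerases, from 368 to 304 CPM (log2 fold change -0.28, FDR = 0.0234), Cdc6, which loads the replicative helicase, from 97.0 to 77.5 CPM (-0.33, FDR = 0.0476), and Uhrf1, which maintains DNA methylation at replication, from 120 to 95.7 CPM (-0.33, FDR = 0.0153). Cdc6 did not pass in 6 of the 9 alternatives that kept every library, nor in 6 of the 7 fits that left out a library, and Pcna failed 4 of those 7. Uhrf1 was the one gene to pass when LME-sEV library 3 or HCME-sEV library 2 was left out, and it lost its call when LME-sEV library 2 was. Pcna and Uhrf1 have near-identical copies of their 3′ ends elsewhere (Pcna-ps2 and Gm5648), as has Cdc20 (Gm7856), so their counts may be shared. Exons of Elovl1 overlap those of Cdc20 on the opposite strand.

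Of 10 genes of G2 and mitosis 1 fell and 9 did not pass (median log2 fold change -0.14), near the 8.96% of all tested genes that passed. The one was Cdc20, the activator of the anaphase-promoting complex, which fell from 173 to 138 CPM (log2 fold change -0.32, FDR = 0.0144) and did not pass without LME-sEV library 1 or 3. Mki67, the usual marker of cycling cells, was at 411 ± 16.4 CPM (SD, n = 4) against 422 ± 32.9 CPM (SD, n = 3), and its 95% interval on the log2 scale ran from -0.12 to 0.20 (FDR = 0.818).

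Of 10 factors of quiescence or growth arrest 2 rose and 8 did not pass, where 3.75% of all tested genes rose. A log2 fold change above 0 was found in 8 of 10, against 6496 of all 12623 tested genes, and the median was 0.16. Btg2, an antiproliferative gene of resting lymphocytes, was 67.2, 75.8, 91.8 and 75.2 CPM with HCME-sEVs and 109, 127 and 114 CPM with LME-sEVs, without overlap. It rose by 0.59 on the log2 scale (SE 0.0998, FDR = 0.00104). Ccng2, a cyclin that is high in arrested cells, was 22.9, 46.4, 55.5 and 41.0 CPM with HCME-sEVs and 54.3, 72.1 and 67.7 CPM with LME-sEVs. HCME-sEV library 3 overlapped LME-sEV library 1, and the log2 fold change was 0.66 (SE 0.176, FDR = 0.0230); without LME-sEV library 2 or 3 Btg2 passed alone.

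**Figure D5:**
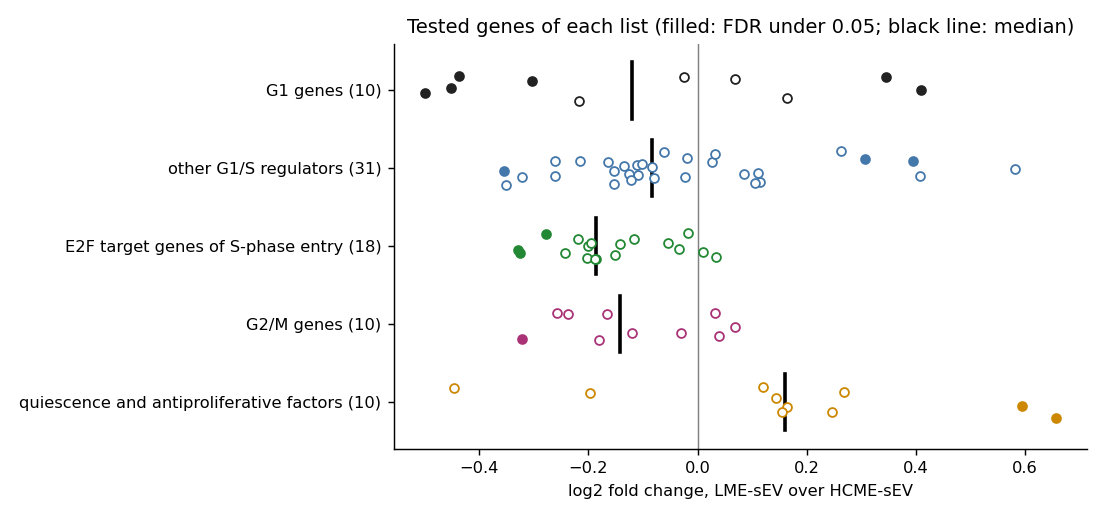
Log2 fold change of LME-sEV over HCME-sEV (x axis) for every tested gene of the 10 G1 genes and of 4 wider lists (rows, number tested in parentheses), filled where the FDR is under 0.05, with the median of each list as a black line. The medians are -0.12, -0.08, -0.19, -0.14 and 0.16 from top to bottom.

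Ccnd2, which had the smallest FDR of the 10, was compared with the 7839 other genes of at least 50 counts a library on average. The genes whose log2 CPM followed it most closely over the 7 libraries were Canx, a chaperone of the endoplasmic reticulum (Pearson r 0.994), Prpf31, a splicing factor (0.993), and Abcf1, a protein of translation initiation (0.990). These are the highest of many correlations over 7 libraries that include the difference between the groups, and they are given as a description. Canx was at 535 and 463 CPM (log2 fold change -0.21, FDR = 0.0753), while Prpf31 fell by 0.56 and Abcf1 by 0.37 on the log2 scale (FDR = 0.00200 and 0.00588).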

How the data were processed

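RNA of 7 cultures of CD8+ T cells was sequenced from 3′ ends with the QuantSeq kit and molecular identifiers. The authors trimmed reads with cutadapt 2.10, mapped them to GRCm38 with STAR 2.5.3a, collapsed copies with UMI-tools 1.0.0 and deposited whole-number counts per gene from featureCounts (Subread 2.0.0), without normalization; the tools and versions are also in the submitters' processing notes. Collapsing by identifier removes PCR copies, so intervals cover captured molecules. The annotation release and the strand setting are not given in the sources used here.

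Groups came from the sample titles. A gene entered the test when its counts averaged 5 or more over the libraries. The test was that of edgeR 4.0.16 (TMM, glmQLFit, glmQLFTest, R 4.3.3), LME-sEV over HCME-sEV without covariate, with Benjamini-Hochberg adjustment across the genes tested. Log2 CPM used a prior count of 2. Ratios were tested by exact permutation of the 7 libraries. Test steps were first tested on simulated data. Coordinates are GENCODE vM21 on GRCm38, and copies of transcript ends were looked for by blast 2.17.0 (last 300 bases, 95% identity over at least 200 bases).

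The genes, wider lists and marker lists were chosen with earlier results of these data known. Named were the 10 genes, each gene of the wider lists that passed, some fixed partners whatever their result, and the 3 genes most like the one of smallest FDR. Alternatives were size factors of DESeq2 1.42.0, upper-quartile factors, library size only, 3 other filters, the DESeq2 test, limma-voom (limma 3.58.1), the replicate number as a block, other prior counts, and leaving out each library. Same-numbered libraries correlated in their deviations from the group means at 0.07, 0.15 and 0.03, and the numbers were not treated as pairs. Plots used matplotlib 3.10.9.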

Additional observations from a re-analysis of the deposited data

Results flagged for a closer look

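Among the 4 HCME-sEV libraries, 1 library stood far from the others in 3 of 31 results, with a gap to its nearest neighbour that, as a share of the whole range, was above Dixon's 95% limit; chance gives about 1 in 20, or 1.55 of 31. For the log2 ratio of Ccne1 to Ccne2, HCME-sEV library 4 was high with a ratio of 0.885, at 0.23 against -0.30 to -0.24 in the other three and -0.03 to 0.27 in the LME-sEV libraries. For Pcna, HCME-sEV library 4 was low with a ratio of 0.944, at 334 CPM against 378 to 381 CPM in the others and 298 to 308 CPM in the LME-sEV libraries. For Ccnd1, HCME-sEV library 3 was high with a ratio of 0.918, at 4.27 CPM against 2.41 to 2.56 CPM in the others, a range of 10 to 23 counts a library.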

How the results depend on the processing

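Ccnd2, Ccne2, Cdk6 and Cdkn1b passed under all 9 settings that kept every library, and between 5 and 6 of the 10 genes did. Ccnd3 did not pass with upper-quartile factors (-0.28), with library size only (-0.26) or with the replicate number as a block (-0.23), and Rb1 did not pass with DESeq2 (0.34). Under the replicate block 1454 genes and 5 of the 10 passed. Replicate number 4 exists for HCME-sEVs only, so under the block HCME-sEV library 4 adds nothing to the difference between the groups. LME-sEV libraries 1 and 3 correlated best with HCME-sEV libraries 3 and 2. With library size only 614 genes were higher and 465 lower (56.9% higher) against 473 and 658 (41.8%) with TMM, and the median of all genes was 0.06. Among the other G1/S partners 5 passed with the block, Cdkn1a included, and 2 with DESeq2, limma-voom or no filter, each time without Tfdp2. Cdc6 did not pass with upper-quartile factors, library size only, filterByExpr, 5 counts in every library, DESeq2 or the block. Of the G2/M genes 2 passed with DESeq2 and 2 with the block, and of the quiescence factors 1 (Btg2) with DESeq2. Leaving out each library gave 391 to 1305 genes, 2 to 6 of the 10, and log2 fold changes of -0.37 to -0.24 for Ccnd3, -0.59 to -0.43 for Ccne2, 0.35 to 0.50 for Cdkn1b and 0.27 to 0.39 for Rb1. It gave 0 to 4 G1/S partners, 0 to 4 E2F targets, 0 to 2 G2/M genes and 1 to 2 quiescence factors, and a Cdk4/Cdk6 log2 difference of 0.37 to 0.50, where no exact p under 0.0667 is possible. Apart from fewer libraries in these fits, the cause was not tested. Cdkn2c and Cdk4, neither called, changed sign. At these depths Cdkn2c and Ccnd1 (10 counts in the lowest library) are the least precise.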
